A study of Mus musculus with 70 samples.

Results

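The response of muscle satellite cells to injury at day 1 was followed in 6 of the 70 libraries of the series: 3 from uninjured hindlimb muscle and 3 taken 1 day after injury with cardiotoxin (CTX), a snake venom toxin that lyses myofibres. All came from C57BL/6J mice with no transgene or other treatment named. For every library 1000 cells were sorted in 2 rounds to raise purity, lysed directly and sequenced as poly(A) RNA, and the libraries were chosen by their labelled population (MuSC, muscle stem or satellite cell) and state. The labels number the libraries 1 to 3 in each state but do not tie them to animals, so the p-values below measure the spread between libraries, which may be partly technical. The other sorted populations of the same experiment, used here only to show where satellite cells differ, were the stromal cells called MmSCs, CD31+ cells and CD45+ cells, with 3 libraries per state. Ages are not stated in the labels.

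Satellite cells lie between the myofibre and its basal lamina and are kept out of the cell cycle by Notch signals from the niche, with Pax7 as their defining transcription factor. After damage they leave quiescence, make the myogenic factors Myf5 and Myod1, enlarge, and enter a slow first cell cycle before dividing as myoblasts. This activation is accompanied in other settings by Myc-driven growth, new ribosomes and a shift in metabolism, so gene lists for each of these programmes were set beside identity, Notch, stress and inflammatory lists.

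The MuSC label held up against its markers. Pax7 was at 648, 507 and 588 CPM (counts relative to the library total, scaled with the trimmed mean of M-values) in uninjured libraries 1 to 3, while its mean in any group of the other 3 populations was at most 0.813 CPM. Myf5 and Myod1 had group means of at most 0.156 and 0.0657 CPM outside the MuSC libraries. The MuSC libraries held 2252373 to 6972919 counts over 19302 to 22252 genes with a count, and every injured library (5533732 or more) was deeper than every uninjured one (4134205 or fewer). Counts of 16 leukocyte markers summed to 4.9 to 6.86 CPM, of 12 endothelial markers to 5.37 to 15 CPM and of 8 Schwann cell markers to 3.49 to 8.58 CPM. Sums for 10 mural cell markers were larger, 1180 to 2010 CPM in uninjured and 509 to 1010 CPM in injured libraries. Uninjured MuSCs had the highest mural sums of the 8 groups, above uninjured CD31+ cells (605 to 849 CPM) and uninjured MmSCs (358 to 381 CPM). The lowest log2 change in the mural list, -1.95, matched that of Notch3, described below among the Notch genes of MuSCs. The mural sums thus appear to include Notch3. Whether mural cells contributed was not tested.

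Stromal transcripts were not spread evenly over the injured libraries. Pdgfra, a receptor that marks muscle stromal cells, was at 0.196, 0.343 and 0 CPM in the uninjured libraries. Injured library 1 had 0.303 CPM (2 counts), injured library 2 had 49.6 CPM (304 counts) and injured library 3 had 25.9 CPM (196 counts). Set against the mean of injured MmSCs, 665.4 CPM, these levels were 0.0456%, 7.46% and 3.89%.
Dcn, a matrix proteoglycan of stromal cells, was at 27.2, 2.4 and 68.4 CPM before injury and 17, 359.9 and 261 CPM after it, the latter 0.16%, 3.4% and 2.46% of the injured MmSC mean of 10590 CPM. Smoc2 (1.67, 124 and 68.9 CPM) and Lum (4.1, 67.6 and 56.4 CPM) had the same order in the injured libraries. Injured library 1 was thus at the level of uninjured libraries for each of these 4 genes except Smoc2, at 1.67 CPM against 0.392 CPM or less, and libraries 2 and 3 were above all others. The share of the injured MmSC mean in libraries 2 and 3 varied by marker. It was 7.79% and 6.51% for Lum, and 2.56% and 1.84% for Mfap5, a further stromal transcript. Of the 15 stromal markers listed, 5 were higher and 3 lower after injury with all libraries, 2 and 2 with injured library 1 alone, and the list summed to 1930 to 2770 CPM in injured MuSCs, 4060 to 4790 CPM in uninjured MuSCs and 43300 to 62400 CPM in injured MmSCs. Because of this pattern, each result below was also computed with injured library 1 as the only injured MuSC library.

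**Figure D1:**
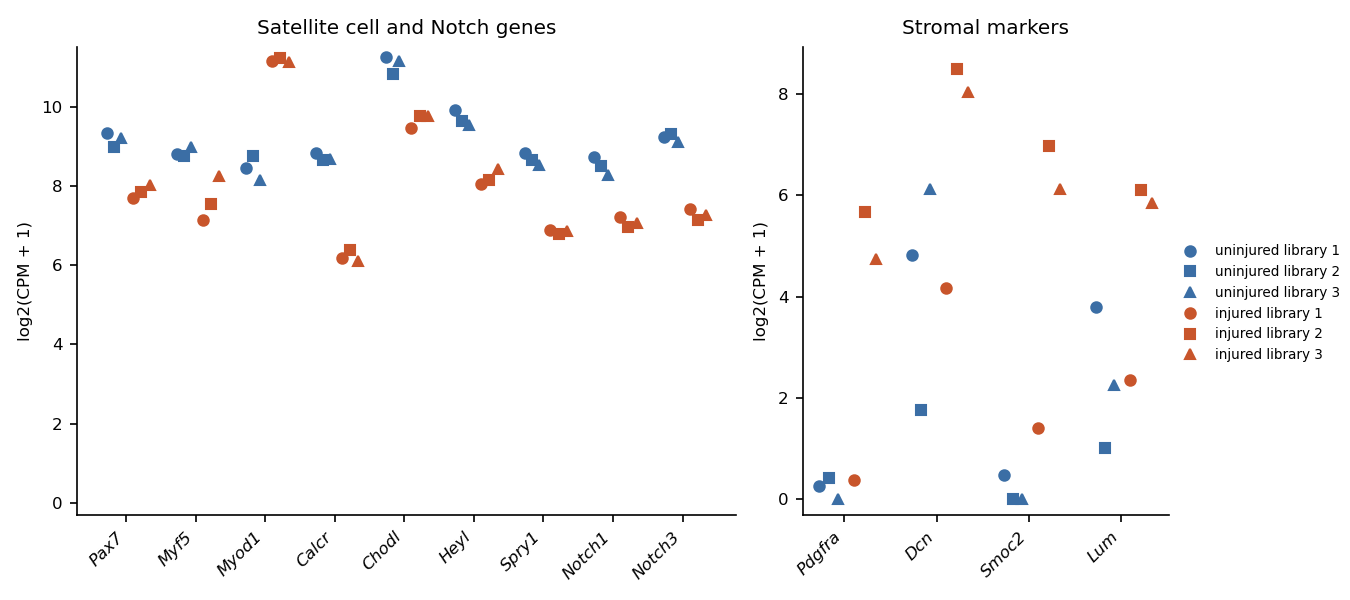
Expression in each MuSC library as log2(CPM + 1), with 3 uninjured (blue) and 3 injured (orange) libraries drawn as separate symbols, for satellite cell and Notch genes (left) and stromal markers (right). Myod1 lies higher and the other 8 genes of the left panel lower in every injured library; on the right injured libraries 2 and 3 stand far above the rest for Pdgfra and Smoc2.

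Of 16374 genes tested, 6357 (38.8%) differed between injured and uninjured MuSCs at a Benjamini-Hochberg adjusted p under 0.05 in edgeR's quasi-likelihood test. Higher levels after injury were called for 3501 genes (21.4%) and lower levels for 2856 (17.4%). The median log2 change over all genes was -0.04 and the quartiles were -0.79 and 0.69. With injured library 1 as the only injured library, 2197 genes (11.3%) were called higher and 1868 (9.62%) lower among 19421 tested. Of the 3501 genes, 3474 stayed positive in that fit and 2159 were called again, and of the 2856 genes all stayed negative and 1715 were called again. For 72 of the 3501 genes (2.06%), the MmSC level scaled by the Pdgfra share came to 50% or more of the measured CPM in both injured libraries 2 and 3, and 20 of these 72 were still called higher without those libraries. The count of 72 rests on Pdgfra as the scaling marker, and other stromal markers gave other shares. The median of all genes moved from -0.04 to -0.14 when DESeq2 size factors replaced the default scaling, so changes of that size depend on the scaling. With those factors 3175 genes were higher and 3340 lower, so which direction held more calls also depended on it.

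Calls by gene list separated a few programmes from the rest. Lists of replication, ribosome assembly, translation and the proteasome were called almost wholly higher. Antiproliferative genes were called lower in 23 of 25 cases, quiescence genes in 23 of 30 and Notch pathway genes in 13 of 20, with inflammatory lists between. The list counts below from all libraries stand beside 21.4% higher and 17.4% lower over all genes tested. Counts with injured library 1 alone stand beside the smaller shares of that fit, given above. Medians from that fit stand beside -0.23 over all its genes.

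**Figure D2:**
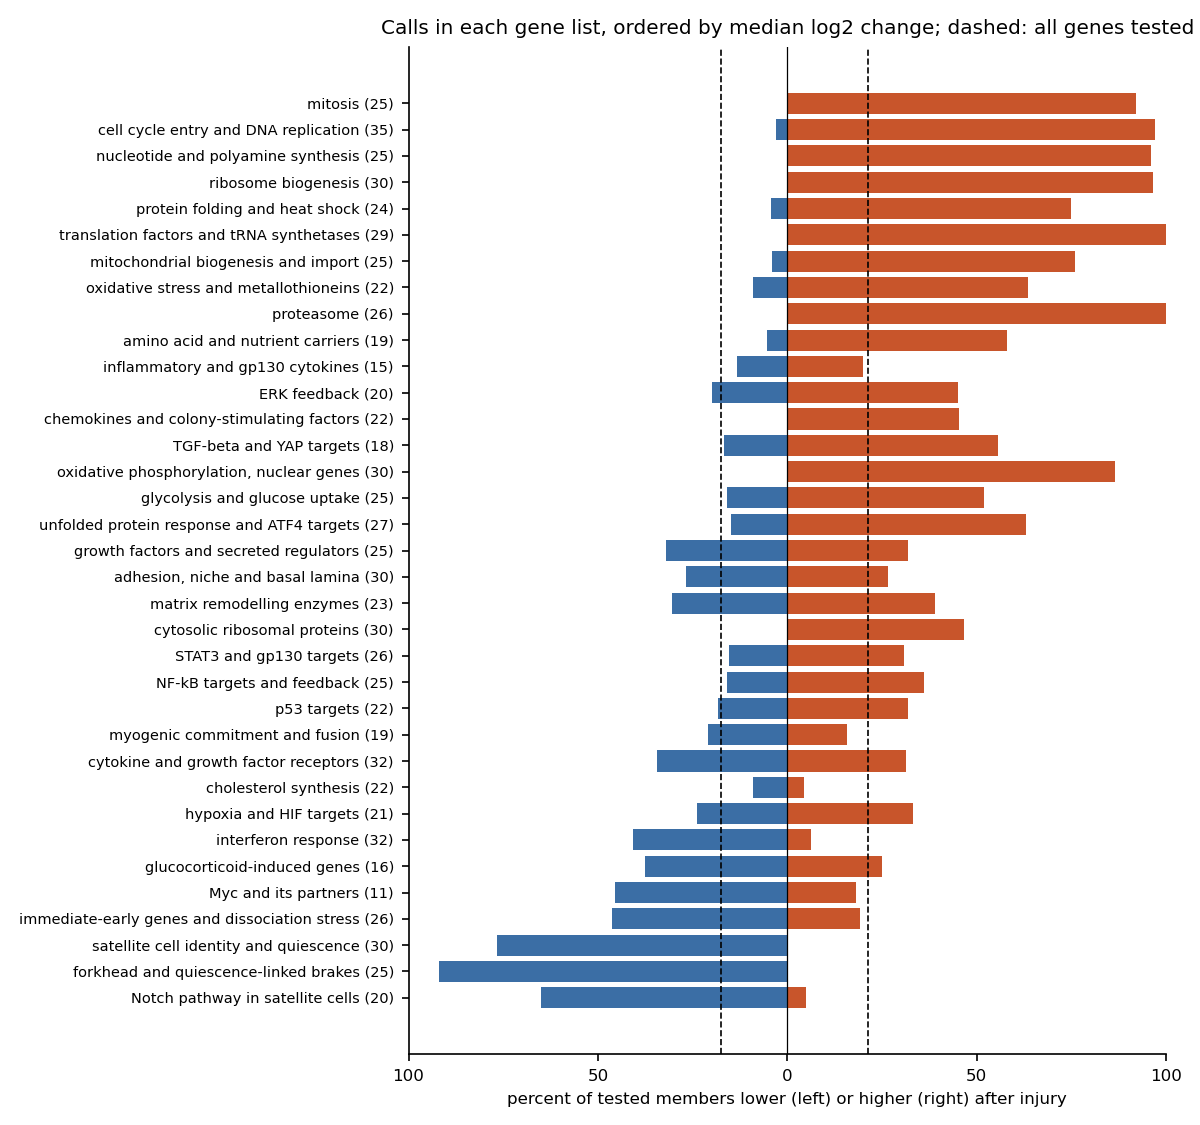
Percent of tested members called higher (orange, right) or lower (blue, left) in injured against uninjured MuSCs for each gene list, with the number tested in brackets and lists ordered by median log2 change. Dashed lines mark all genes tested, 21.4% higher and 17.4% lower; the translation and proteasome bars reach all members, and the bars of the bottom 3 lists point almost entirely to the left.

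Most quiescence genes fell. Of 30 identity and quiescence genes tested, 23 were lower after injury, none was higher, and the median log2 change was -1.26 (-0.04 over all genes); with injured library 1 alone 20 were lower. In the fit of the 6 MuSC libraries 3 members were called higher. Pax7 (chr4:139737062-139833528, minus strand, GRCm38) dropped from 648, 507 and 588 to 206, 229.8 and 258 CPM (log2 change -1.33 ± 0.31, adjusted p = 0.00254). Myf5 (chr10:107482908-107486134, minus strand), the myogenic factor already made in quiescent cells, went from 444, 429 and 505 to 141, 186 and 304 CPM (log2 change -1.13 ± 0.25, adjusted p = 0.00189). For both genes the highest injured library lay below the lowest uninjured one. How often states lacked overlap over all genes was not counted, for these genes or those below. In DESeq2's Wald test on the 24 libraries Pax7 had a similar change and an adjusted p of 0.514, while edgeR on the 6 MuSC libraries alone gave 6.28e-06. In such bulk libraries fewer cells of a type and less RNA per cell cannot be told apart.

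Calcr, the calcitonin receptor that holds satellite cells quiescent, fell from 451, 399 and 408 to 71.2, 82.6 and 67.3 CPM (log2 change -2.51 ± 0.18, adjusted p = 1.42e-09). Chodl, a membrane lectin used as a satellite cell marker, fell from 2425, 1802 and 2262 to 701, 869 and 864 CPM. Spry1, a feedback inhibitor of growth factor signalling, fell from 457, 400.0 and 366 to 116, 109 and 114 CPM. No injured library reached the lowest uninjured one for any of these genes. The receptors Fgfr1 and Fgfr4 fell by 1.44 ± 0.22 and 1.11 ± 0.20 on the log2 scale, Tek, the angiopoietin receptor, by 2.09 ± 0.38, Rgs2, a regulator of G protein signalling, by 1.80 ± 0.31, and the stem cell surface protein Cd34 by 1.08 ± 0.22. Cdh15, or M-cadherin, fell from 1525, 1299 and 1250.5 to 696, 725 and 830.4 CPM (log2 change -0.86 ± 0.30, adjusted p = 0.0288), a call lost in 4 of the 6 fits that left out a MuSC library, with injured library 1 alone (adjusted p = 0.0912) and in DESeq2's test.

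Calls for some surface markers depended on the fit. Vcam1, an adhesion molecule used to sort satellite cells, was at 681, 564 and 585 CPM before and 454, 416 and 367 CPM after injury (adjusted p = 0.0834). Itga7, the laminin receptor of muscle, had log2 change 0.48 ± 0.24 (adjusted p = 0.126), and Sdc4, a heparan sulfate proteoglycan, 0.56 ± 0.26 (adjusted p = 0.0933). None of the 3 passed the threshold in the fit of 24 libraries, though all 3 passed it in the fit of the 6 MuSC libraries, with adjusted p of 0.00137, 0.00761 and 0.0018. Vcam1 also passed as lower with DESeq2 size factors (adjusted p = 0.0385), with no filter (0.0317), with the replicate block (0.0498) and in DESeq2's Wald test (0.0106), but in no edgeR fit of the 24 libraries with a MuSC library left out.

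Among 20 Notch pathway genes tested 13 fell, 1 rose and 6 passed in neither direction, with a median log2 change of -1.37; 10 fell with injured library 1 alone. Notch1 was at 424, 361 and 309.8 CPM before and 147, 123 and 132 CPM after injury (log2 change -1.45 ± 0.19, adjusted p = 3.29e-06), and Notch3 at 604, 627 and 553 against 171, 140.3 and 152 CPM (log2 change -1.95 ± 0.24, adjusted p = 8.15e-07). Notch2 fell less, by 0.94 ± 0.16. The injured libraries lay below all uninjured ones for each of these receptors. The targets Heyl, Hey1 and Hes1, transcriptional repressors turned on by cleaved Notch, fell by 1.49 ± 0.21, 1.62 ± 0.24 and 2.18 ± 0.47. Hes1 lost its call with injured library 1 alone (adjusted p = 0.0544), where its change was -1.83. Dtx4, a ligase acting on Notch, fell from 358, 383 and 355 to 110.0, 131 and 103 CPM. Rbpj, the DNA-binding partner of cleaved Notch, was at 22.5, 18.2 and 20.9 CPM before and 20.9, 20.9 and 25.5 CPM after injury and did not pass the test, with a small log2 change that was 0.12 over all libraries and -0.14 with injured library 1 alone. Jag1, a ligand, fell from 72.3, 84.1 and 68.8 to 31, 33.2 and 27.2 CPM, whereas the ligand Jag2 rose from 4.9, 4.8 and 4.57 to 24.3, 26 and 22.3 CPM (log2 change 2.34 ± 0.28, adjusted p = 7.42e-07).

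Most listed genes that restrain growth and division showed the same direction. Cdkn1a, a kinase inhibitor counted below with the commitment genes, rose instead (log2 change 2.12). Of 25 forkhead factors and antiproliferative genes tested, 23 fell and none rose (median log2 change -1.30; 18 lower with injured library 1 alone). Sesn1, a stress-induced inhibitor of mTOR signalling, fell from 242, 228 and 233 to 56.4, 62.2 and 56.2 CPM (log2 change -2.01 ± 0.17, adjusted p = 5.13e-09). Pik3ip1, an inhibitor of PI3 kinase, fell from 161, 132 and 214 to 33.2, 40.2 and 29.5 CPM, and Gas1, a growth arrest protein, from 518, 332 and 528 to 114, 96.2 and 51.7 CPM. The injured libraries lay well below the uninjured ones for all 3. Decreases were also measured for the cyclin-dependent kinase inhibitor Cdkn1b (-1.18 ± 0.21), the forkhead factors Foxo3 (-0.81 ± 0.17) and Foxo1 (-1.30 ± 0.28), the Myc antagonist Mxd4 (-1.60 ± 0.18), the thioredoxin-binding protein Txnip (-1.59 ± 0.27), the antiproliferative gene Btg2 (-1.73 ± 0.26) and Ypel3 (-2.05 ± 0.32).

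Myod1 rose while Myf5 fell. The gene (chr7:46376474-46379099, plus strand) rose from 346, 431 and 284 CPM to 2269.8, 2375 and 2215 CPM, with every injured library more than 5 times the highest uninjured one (log2 change 2.69 ± 0.18, adjusted p = 1.49e-07). Of 19 genes of commitment and fusion tested, 3 rose and 4 fell (median log2 change -0.20; 2 and 2 with injured library 1 alone), shares close to those of all genes. Myog, which drives terminal differentiation, was at 184, 288 and 57 CPM before and 131, 68.9 and 79 CPM after injury (adjusted p = 0.143), and the highest and lowest values both came from uninjured libraries. Cdon, a surface receptor that promotes differentiation, fell from 269, 257 and 206 to 99.1, 94.9 and 114 CPM, and Megf10, a satellite cell receptor of the engulfment family, fell by 1.59 ± 0.33. Cdkn1a, the p21 inhibitor that is both a Myod1 and a p53 target, rose from 35.7, 32.2 and 15.1 to 149, 119 and 91.2 CPM.

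Myofibre transcripts, which can reach sorted cells as fragments of lysed or adhering fibres as well as from myogenic cells themselves, were lower in the injured libraries. The 25 listed genes summed to 1120 to 1220 CPM before and 666 to 852 CPM after injury, and of 22 tested 12 fell and 2 rose, or 7 fell without injured library 2 and 5 with injured library 1 alone. Actn3, of fast-fibre Z discs, fell from 192, 183 and 182 to 64.5, 54.9 and 78.2 CPM, and the fast-fibre calcium pump Atp2a1 from 171, 146 and 133 to 50.2, 36.1 and 49.7 CPM. Acta1, skeletal actin, was at 212, 199 and 198 and 102, 111 and 123 CPM (adjusted p = 0.0826). The part of fibre fragments in these values was not tested.

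Replication genes rose more than any other programme apart from mitosis. Their start sites carry E2F motifs at a high rate, and stretches of the promoters of 4 members are shown because 34 of the 35 genes rose. The sizes differed, with log2 changes from -0.67 to 5.38 over the list. Each stretch is the 180 bases before the RefSeq start on GRCm38.p6, read on the gene's strand, with the match to TTTGGCGC or its complement in capitals.
Mcm6 (chr1:128359706-128359885, minus strand): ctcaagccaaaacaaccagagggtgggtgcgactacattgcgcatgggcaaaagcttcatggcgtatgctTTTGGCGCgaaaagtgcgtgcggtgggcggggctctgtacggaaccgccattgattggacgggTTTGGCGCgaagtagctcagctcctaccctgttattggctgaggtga
Mcm5 (chr8:75109329-75109508, plus strand): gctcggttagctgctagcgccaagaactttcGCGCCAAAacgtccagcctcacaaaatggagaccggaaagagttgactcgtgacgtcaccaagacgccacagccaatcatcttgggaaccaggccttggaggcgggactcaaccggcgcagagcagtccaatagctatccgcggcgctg
Cdc25a (chr9:109875399-109875578, plus strand): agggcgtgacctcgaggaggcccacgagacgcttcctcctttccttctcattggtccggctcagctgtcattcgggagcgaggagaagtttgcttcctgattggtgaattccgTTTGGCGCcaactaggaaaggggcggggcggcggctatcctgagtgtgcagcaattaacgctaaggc
Pola1 (chrX:93632156-93632335, minus strand): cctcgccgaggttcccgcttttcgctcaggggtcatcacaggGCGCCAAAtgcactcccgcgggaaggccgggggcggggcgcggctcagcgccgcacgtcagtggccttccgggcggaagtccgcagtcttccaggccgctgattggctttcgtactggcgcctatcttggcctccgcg
Mcm6 holds 2 matches in this stretch and the other three 1 each. In the whole window of 300 bases (250 before to 50 after the start, both strands), 7 of the 28 list genes found in the RefSeq table had TTTGGCGC (25%) and 6 had TTTCCCGC (21.4%), against 1.03% and 2.21% of 11597 tested genes with a promoter. Mcm3 has both motifs, at separate positions. A match is a description of the sequence and not a measured binding site.

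Of the 35 genes of cell cycle entry and DNA replication tested, 34 rose and 1 fell, both with all libraries and with injured library 1 alone, and the median log2 change was 3.01. Mcm6 and Mcm5 encode subunits of the replicative helicase. Mcm6 rose from 48.8, 38.4 and 31.2 to 769.5, 618 and 585 CPM (log2 change 4.05 ± 0.29, adjusted p = 4.30e-10), and Mcm5 from 41.2, 49.1 and 32.4 to 719.9, 674 and 634 CPM (log2 change 4.06 ± 0.26, adjusted p = 7.19e-11). Pola1, the catalytic subunit of DNA polymerase alpha, rose from 32.5, 27.8 and 32.2 to 114, 104 and 114 CPM, and Cdc25a, a phosphatase that activates cyclin-dependent kinases, from 6.86, 10.6 and 10.9 to 35.2, 27.4 and 25.8 CPM. The helicase subunits thus changed by more than 4 times the increase of Cdc25a on the linear scale. Pcna, the polymerase clamp, rose by 3.50 ± 0.19, Rrm2, which supplies deoxynucleotides, by 4.80 ± 0.60, and Mcm3 by 3.88 ± 0.18.

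Cyclins and kinases of the first gap phase were less uniform. Ccnd1, cyclin D1, rose from 142, 184 and 115 to 356, 351 and 343 CPM and its partner Cdk4 from 411, 400.4 and 363 to 970.0, 869.8 and 916 CPM, while cyclin D3 (Ccnd3), the 1 gene of the list that fell, went from 889, 1207 and 933 to 670.3, 493 and 738 CPM (log2 change -0.67 ± 0.17, adjusted p = 0.00296). Cdk6, a second partner of D cyclins, rose from 19.2, 32.6 and 29.2 to 449, 387 and 343 CPM (log2 change 3.88 ± 0.27, adjusted p = 2.77e-10). Cyclin E1 (Ccne1), which starts S phase, rose from 4.31, 5.83 and 2.58 to 156, 95.4 and 114 CPM (log2 change 4.89 ± 0.48, adjusted p = 3.94e-08). On the linear scale Cdk6 and Ccne1 increased several times more than Ccnd1 and Cdk4.

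Mitotic genes rose too, but the injured libraries differed widely. Of 25 tested, 23 rose and none fell, with median log2 change 3.60. Ccna2, cyclin A2, was at 8.23, 7.89 and 0.397 CPM before and 264, 71.7 and 155 CPM after injury (log2 change 4.94 ± 0.93, adjusted p = 1.85e-04). Top2a, topoisomerase of replicating chromosomes, was at 12.3, 5.83 and 2.38 against 185, 64 and 123 CPM, and Mki67, the proliferation antigen, at 8.04, 11.3 and 0 against 83.9, 13.4 and 50.2 CPM. Injured library 2 was lowest and library 1 highest for each, and in the uninjured set library 3 was lowest. Mki67 in injured library 2 stood only just above the highest uninjured library, and its adjusted p of 0.00836 became 0.0519 when injured library 1 was left out. Ccnb2 (7.84, 21.6 and 0.397 against 39, 3.92 and 25.1 CPM) and Cenpa (13.9, 13 and 2.19 against 41.3, 2.94 and 21.4 CPM), of late mitosis, were the 2 members that did not pass; in both, injured library 2 lay within the uninjured range. The order of the injured libraries for these genes (1, 3, 2) is the reverse of their order for Pdgfra, and the part of stromal RNA in it was not tested.

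**Figure D3:**
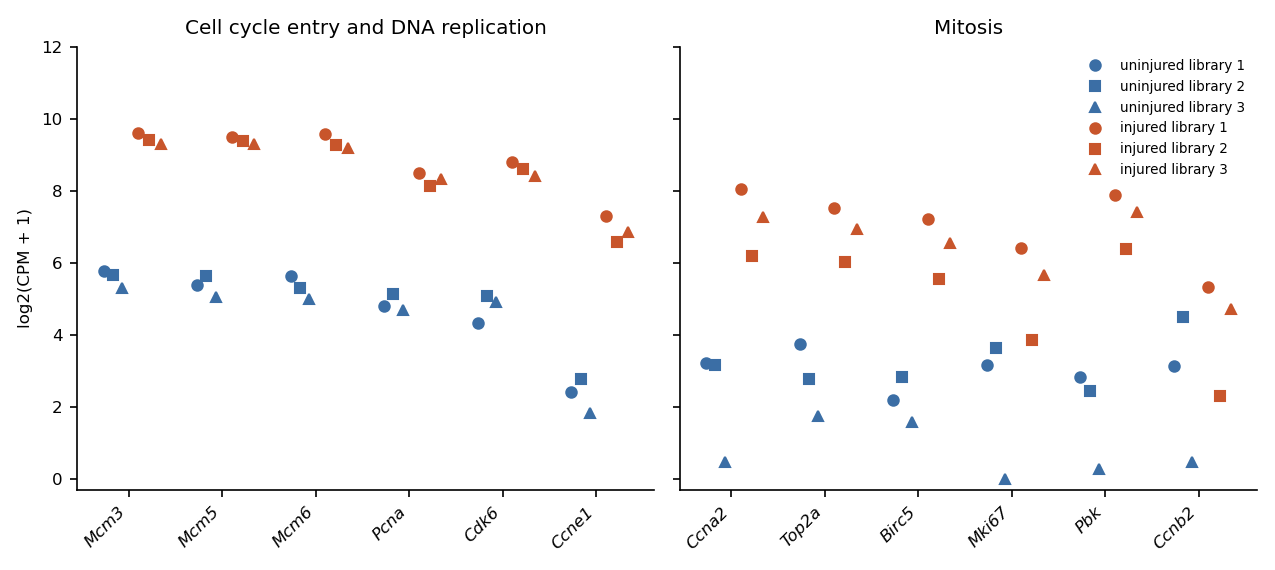
Expression as log2(CPM + 1) in 3 uninjured (blue) and 3 injured (orange) MuSC libraries for replication genes (left) and mitotic genes (right). The injured libraries lie close together on the left, whereas on the right injured library 2 (orange squares) is the lowest of the 3 for all 6 genes and falls below 2 uninjured libraries for Ccnb2.

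Ribosome assembly genes rose. Of 30 genes of ribosome biogenesis tested, 29 rose and none fell (median log2 change 1.70; 27 with injured library 1 alone). The E-box CACGTG, which Myc and Max bind, was found in 7 of these promoters, and its surroundings are written out because the box recurs near the start site.
Nop2 (from base -60): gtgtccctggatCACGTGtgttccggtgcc
Pes1 (from base 3): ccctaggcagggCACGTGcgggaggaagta
Utp4 (from base 16): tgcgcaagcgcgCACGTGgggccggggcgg
Wdr43 (from base 18): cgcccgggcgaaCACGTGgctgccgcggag
Tsr1 (from base 25): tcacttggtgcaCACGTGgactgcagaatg
Ltv1 (from base 29): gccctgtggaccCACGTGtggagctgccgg
Utp20 (from base 38): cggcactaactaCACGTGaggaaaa
Capitals mark CACGTG, positions count from 1 at the RefSeq start on the gene's strand (negative before it), and 12 bases are given on either side as far as the table reaches. On GRCm38.p6 these lie at chr6:125131811-125131840, chr11:3963965-3963994, chr8:106893643-106893672, chr17:71616220-71616249, chr11:74898092-74898121, chr10:13193092-13193121 and chr10:88826765-88826789, with Ltv1 and Utp20 on the minus strand. All but the Nop2 box fall after the start. Promoters of 25 of the 30 genes were in the RefSeq table, so the share was 28%, against 11.2% of all 11597 tested genes with a promoter, and none of 16 such promoters among the 23 individually selected rising genes had the box.

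The 7 genes with the box rose, as did all but 1 of the others. Utp4, a small subunit processome protein, rose from 70.4, 80.6 and 66.4 to 268, 285 and 244 CPM (log2 change 1.87 ± 0.17, adjusted p = 1.00e-08), and Nop2, an rRNA methyltransferase, from 81.5, 108 and 101 to 347, 319 and 313 CPM (log2 change 1.75 ± 0.16, adjusted p = 1.20e-08). Pes1, Wdr43, Tsr1, Ltv1 and Utp20, all factors of subunit assembly, had log2 changes of 0.97, 1.50, 0.88, 0.79 and 1.17. Among members with no match, Nhp2, of the box H/ACA snoRNP, rose from 101, 110.5 and 98.2 to 529, 518 and 494 CPM (log2 change 2.31 ± 0.12, adjusted p = 4.17e-12), nucleolin (Ncl) from 411, 402 and 436 to 1879, 1785 and 1594 CPM, and nucleophosmin (Npm1) from 616, 601 and 605 to 2273, 2294 and 2228 CPM. For each of these the replicates spread by less than 1.3 times within a state. Nolc1, Nop58 and Nop56, nucleolar proteins of snoRNP assembly, rose by 2.23 ± 0.15, 2.28 ± 0.22 and 1.51 ± 0.14.

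Ribosomal proteins themselves moved little. Of 30 tested, 14 rose, none fell and the median log2 change was 0.28, and only 1 rose with injured library 1 alone; with DESeq2 size factors 10 rose. Rpl27 went from 163, 153 and 177 to 339, 320.2 and 336 CPM (log2 change 1.01 ± 0.12, adjusted p = 5.49e-07) and Rplp1 from 1005, 1041 and 1203 to 1569, 1788 and 1719 CPM (log2 change 0.64 ± 0.11, adjusted p = 8.46e-05), but Rplp1 was not called with injured library 1 alone (adjusted p = 0.116).

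Myc, the transcription factor that activates ribosome and nucleotide genes, rose from 238, 178 and 161 to 478, 553 and 459.5 CPM (log2 change 1.36 ± 0.14, adjusted p = 9.68e-08), while its relative Mycn fell from 41.4, 79.9 and 41.1 to 8.5, 8.66 and 14.5 CPM (log2 change -2.34 ± 0.41, adjusted p = 1.19e-04). Among 11 genes of the Myc network 2 rose and 5 fell (median log2 change -0.71). All 29 translation factors and tRNA synthetases tested rose (median 1.41; 28 with injured library 1 alone). Eif5a, the hypusinated elongation factor, rose from 619.7, 735 and 644 to 3046, 3048 and 2818 CPM (log2 change 2.16 ± 0.10, adjusted p = 1.16e-12), and Eif6, Eif2s1 and the glycyl-tRNA synthetase Gars by 2.04 ± 0.12, 2.41 ± 0.16 and 1.94 ± 0.14.

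Biosynthesis and protein quality control followed the same course. Of 25 genes of nucleotide and polyamine synthesis 24 rose (median 1.75). Mthfd2, a mitochondrial enzyme of one-carbon metabolism, rose from 10.4, 7.2 and 7.95 to 275, 239 and 244 CPM (log2 change 4.86 ± 0.26, adjusted p = 4.21e-12), Shmt2, which feeds it from serine, from 63.7, 73.8 and 97.6 to 497, 527 and 539.9 CPM, and the nucleoside diphosphate kinase Nme1 from 60.8, 77.2 and 80.5 to 471, 499 and 467 CPM. In this list the change of Mthfd2 was far above the median. All 26 proteasome genes tested rose (median 1.20), with Psma6 from 156, 158 and 153 to 445, 435 and 447 CPM and Psmc2 from 123, 122 and 125 to 372, 387 and 345 CPM. Folding and heat shock genes rose in 18 of 24 cases and fell in 1 (median 1.62), among them the chaperonins Hspd1 (2.94 ± 0.13) and Cct8 (1.83 ± 0.10) and the co-chaperone Stip1 (2.68 ± 0.15).

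Metabolic genes divided by pathway. Nuclear genes of oxidative phosphorylation rose in 26 of 30 cases, with none lower and a median of 0.64; 15 rose with injured library 1 alone. Cycs, cytochrome c, rose from 19.4, 29.8 and 23.7 to 128, 125 and 131 CPM, Cox5a, a subunit of cytochrome oxidase, from 84.5, 76.8 and 65.4 to 248, 227 and 239 CPM, and Atp5b, of ATP synthase, from 1247, 1387 and 1336 to 2729, 2425 and 2640.4 CPM. Mitochondrial import genes rose in 19 of 25 cases and fell in 1 (median 1.29), among the former the outer membrane pore Tomm40 (log2 change 2.29 ± 0.14, adjusted p = 2.88e-11). Of 25 glycolysis genes 13 rose and 4 fell (median 0.63). Lactate dehydrogenase A (Ldha) rose from 596, 714 and 541 to 2834, 2826 and 2653 CPM (log2 change 2.17 ± 0.12, adjusted p = 9.64e-12), enolase (Eno1) by 1.93 ± 0.13 and hexokinase 2 (Hk2) from 3.72, 0 and 1.59 to 33.7, 39.5 and 30.4 CPM. Pdk4, which diverts pyruvate from mitochondria, was at 9.8, 3.77 and 17.9 and 4.55, 8.66 and 5.02 CPM (adjusted p = 0.351).

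Cholesterol synthesis did not join the growth genes: 1 of 22 rose, 2 fell and the median log2 change was -0.34. Insig1, a regulator of sterol synthesis, fell from 149.9, 72.4 and 56.2 to 29.7, 28.4 and 40.3 CPM, with uninjured library 1 the highest. Ebp, a sterol isomerase, was the member that rose, from 55.1, 56.3 and 53.7 to 76.6, 71.5 and 79.3 CPM (adjusted p = 0.00373, and 0.241 with injured library 1 alone). With DESeq2 size factors 4 members fell, and 7 did when uninjured library 3 was left out. Nutrient carriers rose in 11 of 19 cases and fell in 1. Slc1a5, the glutamine carrier, rose from 43.3, 45.3 and 41.1 to 276, 274 and 248 CPM (log2 change 2.62 ± 0.14, adjusted p = 3.78e-12), the ADP/ATP carrier Slc25a5 by 1.98 ± 0.13, and the transferrin receptor Tfrc from 7.64, 6.52 and 6.96 to 55.8, 37.7 and 41.5 CPM.

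Asparagine synthetase (Asns), a target of the amino acid response factor ATF4, changed more than any other gene of its list. It was at 0, 0.343 and 0 CPM before and 109.7, 126 and 97.8 CPM after injury, or 1 count against 2234, 1440 times as many per depth (95% interval from counting error 258 to 56800). Among 27 genes of the unfolded protein and ATF4 response, 17 rose and 4 fell (median 0.62; 11 and 4 with injured library 1 alone). The serine synthesis enzymes Phgdh and Psat1 rose from 71.1, 79.9 and 70.8 to 356, 334 and 326 CPM and from 142, 185 and 135 to 534, 452 and 452 CPM, and the endoplasmic reticulum proteins Hspa5, Manf and Creld2 by 1.40 ± 0.14, 2.25 ± 0.18 and 1.78 ± 0.14. The 4 lower members included the stress factors Atf3 and Ddit3, so the list did not move in 1 direction.

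Immediate-early genes, which are also induced while tissue is digested, were more often called lower than higher in cells from injured muscle. Of 26 tested, 12 fell, 5 rose and 9 passed in neither direction (median -0.72), and only 6 fell when uninjured library 1 was left out. Fos was at 1391, 1277 and 975 CPM before and 359, 557 and 513 CPM after injury (log2 change -1.35 ± 0.26, adjusted p = 2.83e-04), Jun at 1573, 1253 and 1185 and 623, 749 and 700.5 CPM, and Dusp1, a phosphatase that ends MAP kinase signals, at 837, 643 and 654 and 138, 284 and 189.7 CPM. No injured library reached the lowest uninjured one. Fosl1, the Fos family member that lasts through sustained ERK signalling, moved the other way, from 0, 1.37 and 0 to 71.5, 72.2 and 65.8 CPM (log2 change 7.68 ± 0.66, adjusted p = 5.20e-09). Dusp5, a nuclear ERK phosphatase, rose from 0.784, 1.37 and 1.39 to 32, 26.1 and 26.3 CPM and the ephrin receptor Epha2 from 12.9, 6.86 and 5.96 to 85.7, 39.4 and 48.1 CPM; in the ERK feedback list 9 of 20 rose and 4 fell. The AP-1 motif TGACTCA was found in the window of 1 of 22 immediate-early genes (4.55%), against 4.94% of all promoters.

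Genes of oxidative and metal stress rose in 14 of 22 cases and fell in 2 (median 1.22; 11 and 2 with injured library 1 alone). Thioredoxin (Txn1) rose from 113, 119 and 129 to 716, 730.5 and 771 CPM (log2 change 2.62 ± 0.13, adjusted p = 1.19e-12), the metallothioneins Mt1 and Mt2 from 99.6, 64.5 and 139.9 to 552, 817 and 676 CPM and from 54.5, 50.8 and 80.3 to 331, 569.6 and 411 CPM, and transketolase (Tkt) from 34.7, 31.6 and 33.4 to 109.8, 129 and 107 CPM. Sqstm1, the autophagy receptor p62, fell from 1078, 1126 and 1379 to 439, 566 and 549 CPM (log2 change -1.21 ± 0.15, adjusted p = 9.06e-07). Hypoxia genes split, with 7 of 21 higher and 5 lower: Hif1a rose by 1.02 ± 0.18 and Ndrg1 fell from 359, 341 and 320.2 to 83.6, 96.2 and 85 CPM. For p53 targets the counts were 7 higher and 4 lower of 22, with Plk2 up from 20.6, 14.4 and 20.5 to 173, 179 and 131 CPM and Bax up by 1.12 ± 0.12. Among 16 glucocorticoid-induced genes 4 rose and 6 fell. Beside the hypoxia, p53 and glucocorticoid counts, 21.4% of all genes tested were called higher and 17.4% lower.

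Inflammatory programmes were mixed, and part of the signal sat in injured libraries 2 and 3. Of 22 chemokines and colony-stimulating factors tested, 10 rose and none fell (2 fell in the fit of the 6 MuSC libraries); with injured library 1 alone 6 rose. Csf1, the macrophage growth factor, rose from 5.29, 8.23 and 7.15 to 147, 185 and 159.7 CPM (log2 change 4.59 ± 0.28, adjusted p = 3.37e-11), and with injured library 1 alone by 4.28. Cxcl12, which binds Cxcr4, rose from 60.2, 66.6 and 74.1 to 274, 278 and 228 CPM, and Il34, a second ligand of the Csf1 receptor, from 3.92, 1.72 and 3.78 to 58.4, 33.8 and 50.6 CPM. For these 3 genes library 1, with Pdgfra at the uninjured level, was as high as or close to the others. Cxcl3, a neutrophil attractant, had no count before injury and 14.9, 45.6 and 26.4 CPM after it, at least 41.2-fold higher against a floor of 3 counts per library.

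Other factors were higher in injured libraries 2 and 3 than in library 1. Cxcl5, a neutrophil chemokine, had no count in any uninjured library and was at 3.64, 338 and 61.6 CPM after injury; scaling the injured MmSC mean of 1546 CPM by the Pdgfra share gives 115 and 60.2 CPM for injured libraries 2 and 3. Ccl2, the monocyte attractant, was at 0.196, 1.03 and 1.39 CPM before and 23.2, 359 and 194 CPM after injury, with scaled levels of 144 and 75 CPM, and Ccl7 at 0.588, 1.37 and 0.397 and 9.26, 105 and 75.9 CPM, with 72.9 and 38 CPM. All 3 were also called with injured library 1 alone, where the log2 changes were 7.05, 4.58 and 3.53, against 12.37, 7.78 and 6.45 over all libraries; the value for Cxcl5 rests on 0 uninjured counts and is no measured fold. Cxcl14 (6.22, 87.4 and 113 CPM), Il33 (5.61, 56.3 and 28.5 CPM), Cxcl1 (37.3, 109 and 73 CPM), Il6 (0.152, 4.41 and 0.793 CPM), Mmp3 (0.607, 209.8 and 9.38 CPM) and Il1rl1 (0.152, 45.1 and 2.78 CPM) were called over all libraries but not with injured library 1 alone, where their adjusted p ran from 0.381 to 0.61. Leaving out injured library 2 ended the calls of Il6 (adjusted p = 0.062) and Mmp3 (adjusted p = 0.0695) in the edgeR fit. Timp1, a protease inhibitor abundant in injured stroma, was at 2.16, 1.03 and 11.9 before and 195, 567 and 258 CPM after injury, and rose by 4.99 in library 1 alone. Over all 15 inflammatory cytokines tested 3 rose and 2 fell, or 1 and 1 with injured library 1 alone. The scaled levels would be lower with the Dcn or Mfap5 share and higher with the Lum share. How much of each value in libraries 2 and 3 came from stromal RNA was not tested beyond this scaling.

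**Figure D4:**
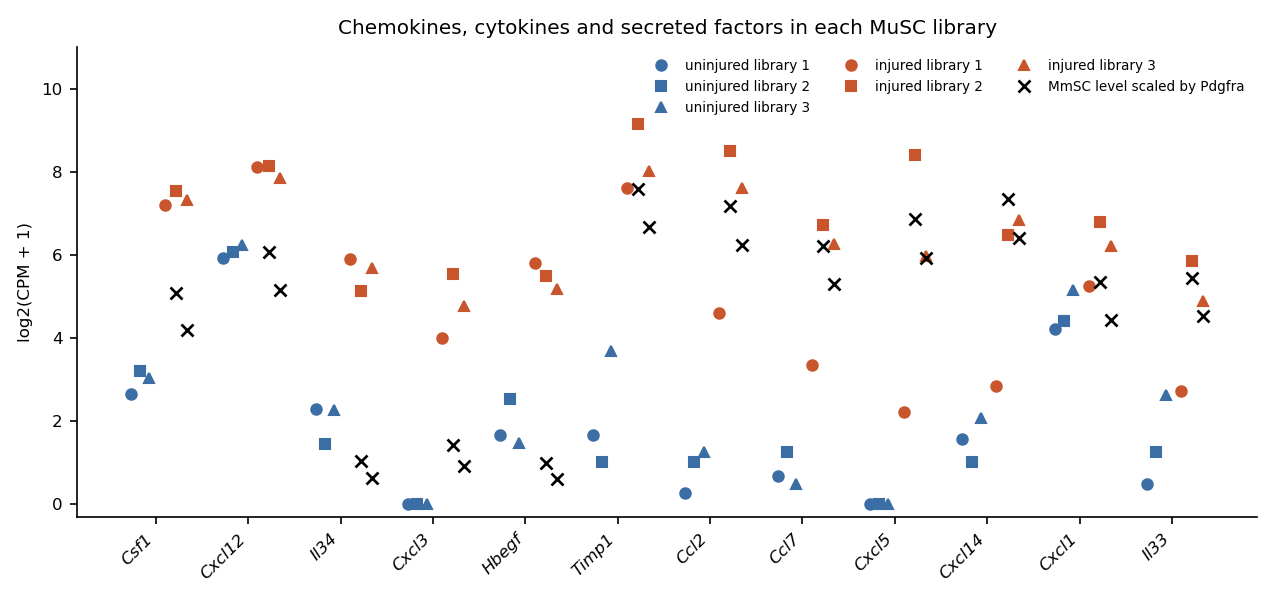
Expression as log2(CPM + 1) of secreted factors in 3 uninjured (blue) and 3 injured (orange) MuSC libraries, with crosses for the injured MmSC mean multiplied by the Pdgfra share of injured libraries 2 and 3. For Csf1, Cxcl12, Il34, Cxcl3 and Hbegf the measured points lie above the crosses and library 1 is high, whereas for Cxcl14 and Il33 libraries 2 and 3 lie near the crosses and library 1 near the uninjured range.

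Of 25 NF-kB targets tested 9 rose and 4 fell (median 0.22; 5 and 4 with injured library 1 alone), and the 4 lower calls became 2 in 5 of the 6 fits that left out a MuSC library. Nfkb2 rose from 75.7, 84.7 and 70.2 to 166, 189 and 177 CPM, Sod2, the mitochondrial superoxide dismutase, from 70.8, 79.9 and 85.9 to 147, 178 and 173 CPM, and Nfkbia, the inhibitor of the pathway, from 162, 183 and 205 to 344, 411 and 383 CPM. Traf1, an adaptor of TNF receptors, had no count before injury and was at 31.9, 20.9 and 23.4 CPM after it, at least 36.8-fold higher. Cd83 fell from 20, 17.5 and 15.5 to 2.88, 1.63 and 4.1 CPM. Interferon genes leaned the other way: 13 of 32 fell, 2 rose and the median was -0.66. Over all genes tested 21.4% were called higher and 17.4% lower. Irf8, an interferon-regulated transcription factor, fell from 24.7, 31.2 and 29 to 8.65, 8.17 and 7.67 CPM and the GTPase Gbp2 from 25.5, 29.5 and 28.2 to 9.56, 13.9 and 8.59 CPM, while Bst2 and Ifitm3, membrane proteins that restrict viruses, rose by 1.35 ± 0.18 and 0.95 ± 0.13. Among 26 STAT3 and gp130 targets 8 rose and 4 fell (median 0.28). With injured library 1 alone their median was -0.24, near the -0.23 of all genes in that fit. Socs3, the feedback inhibitor, was at 115, 54.2 and 51.5 and 107, 169 and 123 CPM (adjusted p = 0.00758, 0.0582 without uninjured library 3 and 0.0583 without injured library 2). Its log2 change of 0.84 became 0.37 with injured library 1 alone.

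Receptors changed in both directions, 10 of 32 higher and 11 lower. Their median log2 change was -0.28. With injured library 1 alone it was -0.45, where the median of all genes was -0.23. With all libraries, 21.4% of all genes tested were called higher and 17.4% lower. Tnfrsf12a, the receptor of the TNF family cytokine TWEAK, rose from 49, 65.5 and 43.1 to 666, 558 and 579 CPM (log2 change 3.52 ± 0.26, adjusted p = 4.30e-10). Osmr, the oncostatin M receptor, rose from 20.6, 13.7 and 14.7 to 50.2, 95.5 and 64 CPM, and Met, the receptor of the satellite cell activator HGF, from 32.7, 40.1 and 32 to 91.2, 69.9 and 92.8 CPM (adjusted p = 0.00473, and 0.0887 with injured library 1 alone). Il17ra, the IL-17 receptor, fell from 299, 183 and 207 to 63, 78.7 and 57.4 CPM (log2 change -1.80 ± 0.24, adjusted p = 2.24e-06). Among growth factors 8 of 25 rose and 8 fell, or 4 and 8 in the fit of the 6 MuSC libraries and 6 and 6 with injured library 1 alone. Hbegf, a ligand of the EGF receptor, rose from 2.16, 4.8 and 1.79 to 55.1, 43.9 and 35.4 CPM, and amphiregulin (Areg), a second such ligand, had no count before injury and 11.2, 7.35 and 2.91 CPM after it, at least 10.1-fold higher. Bmp4 fell from 506, 425 and 411 to 159.9, 164 and 130.2 CPM, Igf1 from 84.9, 83.4 and 45.3 to 11.5, 16.3 and 20 CPM and Tgfb3 from 209, 194 and 191 to 52, 68.6 and 57.8 CPM.

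Genes of contact with the matrix changed in both directions. Laminin gamma 1 (Lamc1) fell from 154, 161 and 168 to 83.3, 69.7 and 78.6 CPM, collagen IV (Col4a1) by 1.19 ± 0.23, and dystroglycan (Dag1), which ties laminin to the cytoskeleton, by 0.96 ± 0.19. Tenascin C (Tnc), a glycoprotein of injured matrix, rose from 0, 1.72 and 2.98 to 249.9, 387 and 231 CPM (log2 change 7.53 ± 0.57, adjusted p = 8.10e-10), and the hyaluronan receptor Cd44 from 55.5, 59 and 59.4 to 635, 604 and 539.9 CPM (log2 change 3.35 ± 0.23, adjusted p = 1.69e-10). N-cadherin (Cdh2) rose by 2.59 ± 0.63, and the integrins Itga3 and Itga5 rose by 1.75 ± 0.35 and 1.70 ± 0.27, with Itga5 at 29.7, 80.7 and 43 CPM after injury and highest in library 2. In the whole list of 30 adhesion genes 8 rose and 8 fell, beside 21.4% and 17.4% of all genes tested. Among 23 matrix enzymes 9 rose and 7 fell, or 5 and 6 with injured library 1 alone: the urokinase receptor Plaur rose from 1.96, 3.77 and 2.78 to 60.5, 60.4 and 68.2 CPM and the metalloprotease Adam12 from 4.31, 3.43 and 0.397 to 41.4, 61.6 and 43.5 CPM, while gelatinase A (Mmp2) fell from 1090.3, 753 and 833 to 120.2, 273 and 167 CPM. Of 18 TGF-beta and YAP targets 10 rose and 3 fell, or 6 and 2 with injured library 1 alone. Those that rose included Ccn1 (2.64 ± 0.34), Ankrd1 (1.98 ± 0.29), Id2 (2.01 ± 0.25) and the receptor kinase Axl (2.35 ± 0.20).

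The largest single changes included genes with no place in these lists. Neuronal pentraxin 1 (Nptx1, chr11:119538719-119547753, minus strand), known from synapses, had no count in any uninjured library and was at 68.6, 99.3 and 47.8 CPM after injury, at least 102-fold higher. Its mean in any group of the other 3 populations was at most 1.43 CPM. Esm1, a proteoglycan secreted by endothelial cells, was at 0, 0 and 0.199 CPM before and 119, 99.5 and 67.9 CPM after injury, 1 count against 1906, a ratio of 1230 (95% counting interval 220 to 48500). The chromatin protein Hmga1 rose from 1.18, 0.343 and 0.795 to 149, 154 and 109 CPM (log2 change 7.32 ± 0.36, adjusted p = 1.19e-12). Ddah1, which degrades an inhibitor of nitric oxide synthase, rose from 0.784, 1.72 and 0.397 to 135, 117 and 96.3 CPM, Ltbp2, of the TGF-beta binding protein family, from 0.196, 0.343 and 0.994 to 44, 65.5 and 51 CPM, and osteopontin (Spp1) from 0, 0 and 5.96 to 335, 89.7 and 203 CPM. Spp1 had the widest spread of these, with 1 uninjured library at 5.96 CPM and the injured ones 3.7 times apart. Genes were also chosen for an injured mean at least as high in MuSCs as in the injured groups of the other populations. Among these, the tubulin Tuba1c rose by 5.45 ± 0.25, the thioesterase Acot7 by 4.98 ± 0.29 and the mitotic kinase Pbk by 5.53 ± 0.88. The survivin gene Birc5, a mitosis list member, rose by 4.70 ± 0.86, the kinase Cdk1 by 4.32 ± 0.61 and nephronectin (Npnt), an integrin ligand, by 4.98 ± 0.75.

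The genes with the largest decreases had varied roles. C-type natriuretic peptide (Nppc) fell from 66.8, 94 and 114 to 2.58, 15.8 and 6.34 CPM (log2 change -3.48 ± 0.50, adjusted p = 3.35e-05). The imprinted noncoding RNA Meg3 fell from 1661, 1653 and 1392 to 252, 255 and 282 CPM (log2 change -2.58 ± 0.25, adjusted p = 3.52e-08). The calcium channel subunit Cacna2d4, R-cadherin (Cdh4), the ATP-gated channel P2rx7, the membrane protein Tmem252 and collagen XV (Col15a1) fell by 3.74, 3.56, 3.08, 2.87 and 3.05 on the log2 scale. The receptor phosphatase Ptprz1, the microtubule protein Mapt, the laminin chain Lama3 and Olfml2a fell by 2.75, 2.77, 2.60 and 2.68. None of these genes had overlapping states, but absence of overlap was a condition for choosing the genes with the largest changes.

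Whether a change differed from that in the other populations was tested as the difference between injury responses in the same fit. The MuSC response differed from the MmSC response for 1251 genes (7.64%), from the CD31+ response for 2013 (12.3%) and from the CD45+ response for 3981 (24.3%). In 286 genes (1.75%) it differed from all 3 in the same direction, 247 more positive and 39 more negative. With injured MuSC library 1 alone the same 4 counts were 652, 1241, 2697 and 159. These comparisons share the MuSC libraries, so their values are given side by side.

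Replication and mitosis separated MuSCs from CD31+ and CD45+ cells and less from MmSCs. Of 25 mitotic genes, 24 had a more positive response in MuSCs than in CD45+ cells and 13 than in CD31+ cells, and none passed the test of a difference from MmSCs. For the 35 replication genes the counts were 32, 25 and 3, while 1, 1 and 2 had a more negative response, Ccnd3 in each case among them. Among all genes tested 16.1%, 7.37% and 5.62% had a more positive response than in CD45+, CD31+ and MmSC cells. For ribosomal proteins, 23 of 30 responded less in MuSCs than in MmSCs and 20 less than in CD31+ cells (2.02% and 4.93% of all genes), whereas 13 responded more than in CD45+ cells and none less. Of 20 Notch pathway genes, 10 had a more negative response than in CD31+ cells (4.93% of all genes), 6 than in CD45+ cells (8.17%) and 1 than in MmSCs (2.02%), while 1, 2 and 2 had a more positive one.

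Csf1 rose by 4.59 in MuSCs and had responses of 1.22, -0.48 and 3.15 in MmSC, CD31+ and CD45+ cells. Axl rose by 2.35 against responses of -0.73, -1.19 and -2.21, and Cdk6 by 3.88 against 1.22, -0.79 and 0.32. In the same order, Hmga1 responded by 4.29, 2.82 and 1.33, Plk2 by 0.08, -0.92 and 2.09, Id2 by -0.86, -0.53 and 0.73, Txn1 by 0.84, 1.00 and 1.54, Cxcl12 by 0.06, 0.01 and -0.50 and Jag2 by -2.20, 0.14 and -0.50, each below the MuSC value and with all 3 differences past the threshold. Trp53i11 (3.53, 2.74 and 1.79 to 50.1, 18.9 and 31.3 CPM) and the lysophosphatidic acid receptor Lpar3 (3.14, 6.52 and 4.57 to 18.7, 27.4 and 32 CPM) were also more positive in MuSCs than in all 3. Their log2 changes within MuSCs were 3.63 and 2.48, and that of Lpar3 was 1.83 with injured library 1 alone. The means of their 3 differences were larger, 4.99 and 6.81, so their mean response in the other populations was negative.

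On the other side, Notch1 fell by 1.45 in MuSCs and had responses of 0.55, 0.40 and 0.35 in MmSC, CD31+ and CD45+ cells. Il17ra fell by 1.80 in MuSCs and rose in each of the other populations, so that its response in MuSCs minus that in MmSC, CD31+ and CD45+ cells was -2.90, -2.96 and -2.57. The chromatin remodeller Chd7 fell from 165, 164 and 174 to 103, 96.8 and 68.2 CPM with responses elsewhere of 2.14, 1.32 and 1.41, Tmem51 from 57.8, 53.5 and 35.2 to 17.8, 14.7 and 14.1 CPM with 1.55, 2.39 and 0.07, and the proteoglycan Srgn from 12.7, 11 and 20.1 to 3.49, 6.21 and 5.42 CPM with 0.44, -0.42 and 2.02. The transaminase Gpt2 was at 9.41, 12.7 and 4.77 and 7.43, 4.9 and 7.4 CPM and did not pass the test within MuSCs (adjusted p = 0.475), while its responses elsewhere were 1.56, 2.92 and 1.54. Mean levels of Srgn and Il17ra in CD45+ cells after injury were 2391 and 296 CPM.

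**Figure D5:**
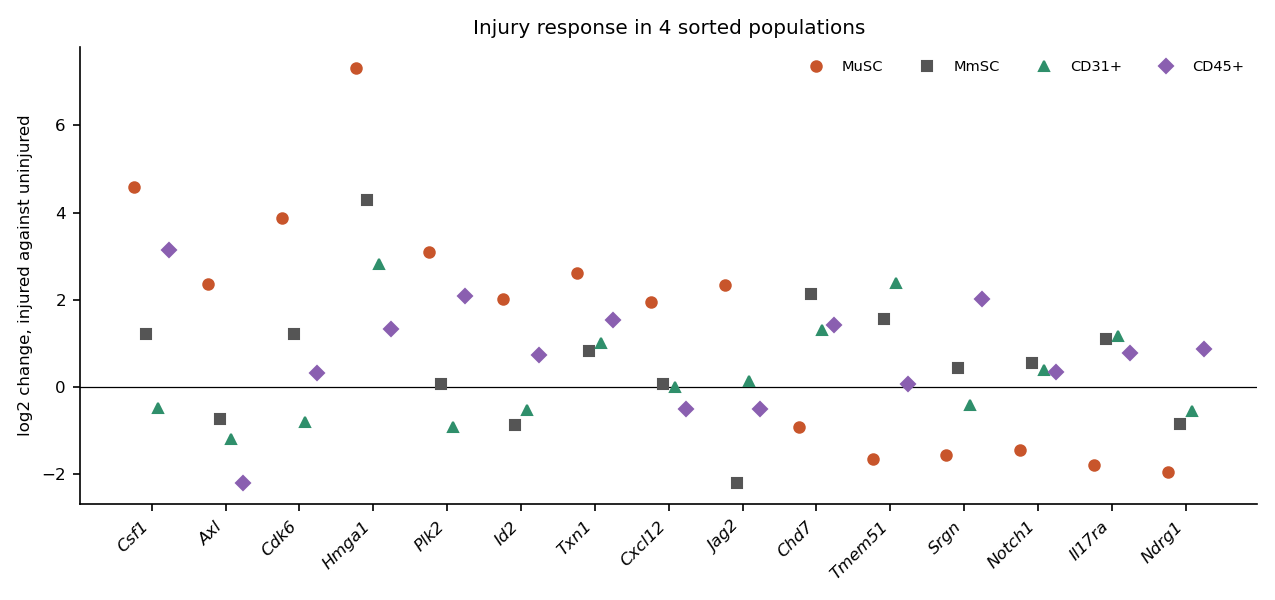
Log2 change between injured and uninjured libraries in MuSCs (circles) and in MmSC (squares), CD31+ (triangles) and CD45+ cells (diamonds), 3 libraries per state, for 15 genes whose MuSC response differed from all 3 others in the same direction. The MuSC circle is the topmost point for the 9 genes on the left and the lowest for the 6 on the right, with Notch1 and Il17ra negative in MuSCs and positive elsewhere.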

How the data were processed

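The authors deposited raw read counts per gene symbol for all libraries. Per the submitters' processing notes, reads were handled with STAR 2.7.3a and featureCounts, and mm10 and GRCm38 are named as builds. The annotation release is not given in the sources used here. From these counts, edgeR 4.0.16 in R 4.3.3 was fitted to 24 libraries (4 sorted populations, uninjured and 1 day after injury, 3 each), so that all 8 groups shared 1 estimate of the spread. Of 55011 symbols, 16374 passed filterByExpr with a minimum count of 10. Scaling used TMM, the test was the quasi-likelihood F-test, and calls needed a Benjamini-Hochberg adjusted p under 0.05 over all genes tested. Values after ± are standard errors of the log2 change. Differences between populations in injury response were contrasts of the same fit. CPM are counts over the total times the TMM factor. Where a group had no counts, the fold was bounded with a floor of 3 counts per library. With 1 to 3 counts a 95% Clopper-Pearson interval was given. These cover counting error alone. The script was tested on simulated data.

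Alternatives were a fit of the 6 MuSC libraries, DESeq2 size factors, DESeq2 1.42.0's Wald test, no filter, a replicate block, each library left out, and only genes at 20% or more of their level in each other population. The fit with injured library 1 as the only injured MuSC library was chosen after seeing the data. There the lone library is assumed to vary like the other groups.

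The libraries, gene lists and tests were chosen with earlier results of these data known. Named genes were those with the 10 largest changes per direction among calls without overlap and a mean log2(CPM + 1) of 3 or more, 15 per direction among genes most abundant in MuSCs, 5 per direction by the mean of the 3 response differences, the 5 smallest p in each list, members of the identity, Notch, myogenic, Myc and receptor lists, and markers of other cell types. Further list members were named after their values were seen. Unnamed gene models were left out. Promoters came from RefSeq (GRCm38.p6) by symbol, and the E2F motifs were added after the values were seen. Gene coordinates are from the same assembly.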

Additional observations from a re-analysis of the deposited data

Results flagged for a closer look

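Injury responses differed between sorted populations by the test of the difference itself. The MuSC response differed from that of MmSCs in 1251 genes, of CD31+ cells in 2013, of CD45+ cells in 3981, and of all 3 in the same direction in 286.

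The genes below passed all 3 tests, and each value is the mean of the 3 differences in log2 response, MuSC minus the other population. A more positive MuSC response was found for Cdk6 (3.63), Hmga1 (4.50), Tuba1c (2.77), Slc1a5 (2.23), Txn1 (1.49), Tkt (1.23), Acot7 (3.00), Plk2 (2.68) and Id2 (2.23), and for Csf1 (3.30), Cxcl12 (2.10), Jag2 (3.19), Axl (3.73), Lpar3 (6.81), Trp53i11 (4.99) and Bst2 (1.31). Nptx1 (10.51), Asns (7.42) and Traf1 (9.28) had 0 or 1 counts in uninjured MuSCs, so their fitted values depend on the prior count and are no bound. More negative in MuSCs were Notch1 (-1.88), Sdc4 (-1.59), Il17ra (-2.81), Ndrg1 (-1.77), Chd7 (-2.53), Tmem51 (-2.99), Srgn (-2.24), Gpt2 (-2.42) and Ccnd3 (-0.99). Sdc4 and Gpt2 did not pass the test within MuSCs.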

How the results depend on the processing

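Under the other scalings, filters, tests, the block and each library left out, each count of genes higher, lower or different between populations stayed within 1.5 times its reported value. Leaving out each of the 24 libraries in turn gave 2974 to 3572 higher genes, 2186 to 3626 lower genes, and 839 to 1379, 1551 to 2135 and 3389 to 3978 genes with a different response from MmSC, CD31+ and CD45+ cells, with 210 to 294 different from all 3. With injured library 1 as the only injured MuSC library, 2197 genes were higher and 1868 lower, and 652, 1241 and 159 responded differently from MmSCs, from CD31+ cells and from all 3; fewer samples entered that fit. Leaving out libraries of the other populations, for the higher and lower counts, was added after seeing the data: without some of these libraries only 45.5% to 46.1% of calls were higher, with a median log2 change of all genes near -0.18 (3047 higher and 3621 lower without uninjured CD31+ library 1, for example); the cause was not tested. Dcn (-1.14), Lum (-0.81) and Rbpj (-0.14) changed sign in the fit with injured library 1 as the only injured MuSC library. Of the 207 genes followed one by one, 190 kept their side of the threshold under every alternative not added after seeing the data. Single genes were not followed in the fits without a library of another population. DESeq2's Wald test lost Pax7, Cdh15 and Lum; the cause was not tested. The median log2 change of all genes was -0.14 with DESeq2 size factors, where 48.7% of calls were higher against 55.1%, and -0.23 with injured library 1 alone. Deviations of same-numbered libraries correlated at 0.0618, -0.076 and 0.029, and those of differently numbered libraries at -0.105 to 0.0791. These values cannot tell whether same-numbered libraries shared an animal or a preparation. The fit with the replicate block called 3316 genes higher and 2527 lower. Uninjured libraries were shallower, so low genes rest on few counts there.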
